A study of Drosophila melanogaster with 72 samples.

Results

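Heads of 18-day-old Drosophila melanogaster that expressed full-length mutant huntingtin (mHTT) in neurons were compared with heads of control flies of the same age. The comparison used 6 of the 72 libraries of the series, 3 with mHTT and 3 controls, selected by the driver, construct and age in the sample labels. The mHTT flies had the genotype elav-GAL4/+; UAS-HTTFLQ200/+ and the controls elav-GAL4/+, so both arms carried the GAL4 driver and the controls lacked the huntingtin insert. Both arms were kept at 29 °C, and each library was made from poly(A) RNA of 50 heads with a strand-specific kit. The study as a whole expressed an N-terminal fragment or the full-length protein in neurons or in glia, at 3 ages each. The titles of the 3 mHTT libraries name day 7, but the age recorded for each library, the code in its description and the collection ages in the protocol all point to 18 days, which was used. The labels do not say whether the replicates came from separate crosses, so p-values measure only the spread between these libraries, which may be technical. The number of insertion lines behind the mHTT genotype is not given in the labels.

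Huntingtin with an expanded glutamine stretch causes Huntington's disease, in which the protein forms aggregates and neurons are lost. In the GAL4/UAS system a driver, here that of the neuronal gene elav, turns on a transgene placed behind UAS sites, so mHTT is meant to be made in neurons. Whether other cells of the head also made it was not tested. A fly head holds brain and eyes together with glia, fat body, muscle, haemocytes and cuticle-forming cells, and a library of whole heads mixes their RNA. Cells under protein stress are known to raise heat shock proteins, and the nucleolus, where ribosomal RNA is made and modified, is known to respond to stress and to growth signals.

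Estimated depth was 40.3 M to 44.5 M reads in the 6 libraries (M, 1e6), which were alike in this respect. Neuronal markers were present in both arms, with a summed value of 50340 to 55776 in the mHTT libraries and 45702 to 53471 in the controls over 6 genes. Summed markers of glia (7 genes) spanned 14197 to 15863 with mHTT and 13905 to 15728 in the controls. The driver gene elav was called higher by 0.28 with all 6 libraries (adjusted p = 0.0493) and lost that call in several of the fits with 1 library left out. The level of the huntingtin transgene itself was not analysed here, so the labels could not be checked against it, and w, which marks many transgenes, changed by 0.07 (adjusted p = 0.611). More genes were listed at 0 in the controls (1516 to 1690) than in the mHTT libraries (1217 to 1241), and 99 genes were at 0 in all 3 controls and above 0 in all 3 mHTT libraries, against 18 the other way round.

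Of 9996 genes tested, 1875 (18.8%) differed between the arms. Of these, 857 were higher with mHTT (8.57% of the genes tested) and 1018 were lower (10.2%). Most changes were small, with a median of 0.40 among the higher genes and -0.52 among the lower ones on the log2(value + 1) scale, and 296 genes changed by at least 1. A gene was called when the Benjamini-Hochberg adjusted p of limma's moderated test fell under 0.05, and on this scale changes of weakly expressed genes are understated. The arms did not overlap for 1872 of the 1875 called genes, and for 39.4% of all genes tested. The number of calls depended on single libraries. It fell to 954 without the first mHTT library, to 983 without the first control and to 976 without the second control, and in none of these fits did a called gene change direction.

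Large changes were ranked among called genes whose arms did not overlap and whose higher arm averaged 100 or more. Among the 12 of these that rose most were an acyl-CoA synthetase-like gene, an alkaline phosphatase, an O-glycosylation enzyme and a cytochrome P450. The acyl-CoA synthetase-like gene CG4500 (hll, FBgn0028519) stood at 2523, 5514 and 2287 in the mHTT libraries and at 218, 299.8 and 123 in the controls. The second mHTT library was highest, and every mHTT value was above every control. Its change was 3.98 (SE 0.39, adjusted p = 0.000697). CG18095 (FBgn0028872) stood at 131, 102 and 141 with mHTT and at 4.21, 4.88 and 6.47 in the controls, with no overlap and a change of 4.35 (SE 0.23, adjusted p = 4.49e-05). It lies antisense to CG4500, and whether reads were counted by strand is not given in the sources used here, so reads of the pair cannot be told apart with certainty. In the glial full-length model at the same age CG4500 averaged 1260 with mHTT and 25.9 in the controls, while CG18095 averaged 8.82 and 7.02.

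CG5150 (Alp9), which encodes an alkaline phosphatase, was read at 164, 219 and 199.6 with mHTT and at 27.2, 36.6 and 21.6 in the controls, a change of 2.75 (SE 0.20, adjusted p = 0.000284). CG6142 was the most even of the large increases, at 312, 324 and 301 with mHTT and 52.4, 55.2 and 59.1 in the controls (change 2.47, SE 0.09, adjusted p = 2.12e-05). Both genes separated the arms in every library. pgant8, an enzyme that starts mucin-type O-glycosylation, was at 109, 116 and 96.6 with mHTT and at 23.9, 23.4 and 29.7 in the controls, a rise of 2.03 (SE 0.15, adjusted p = 0.000284). Cyp6a2, a P450 known from insecticide resistance, was at 1696, 2949.5 and 1963 with mHTT and at 515, 608 and 514 in the controls, a rise of 1.98 (SE 0.18, adjusted p = 0.000581). CG5830 (hzg) rose from 1553, 1507 and 1557 in the controls to 4919, 4299 and 5382, with a change of 1.65 (SE 0.08, adjusted p = 4.38e-05). The U2 spliceosomal RNA copy snRNA:U2:34ABa was also among the 12, with a rise of 2.65, but the U2 copies are near-identical and the kit selects poly(A) RNA, so its value is uncertain.

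**Figure D1:**
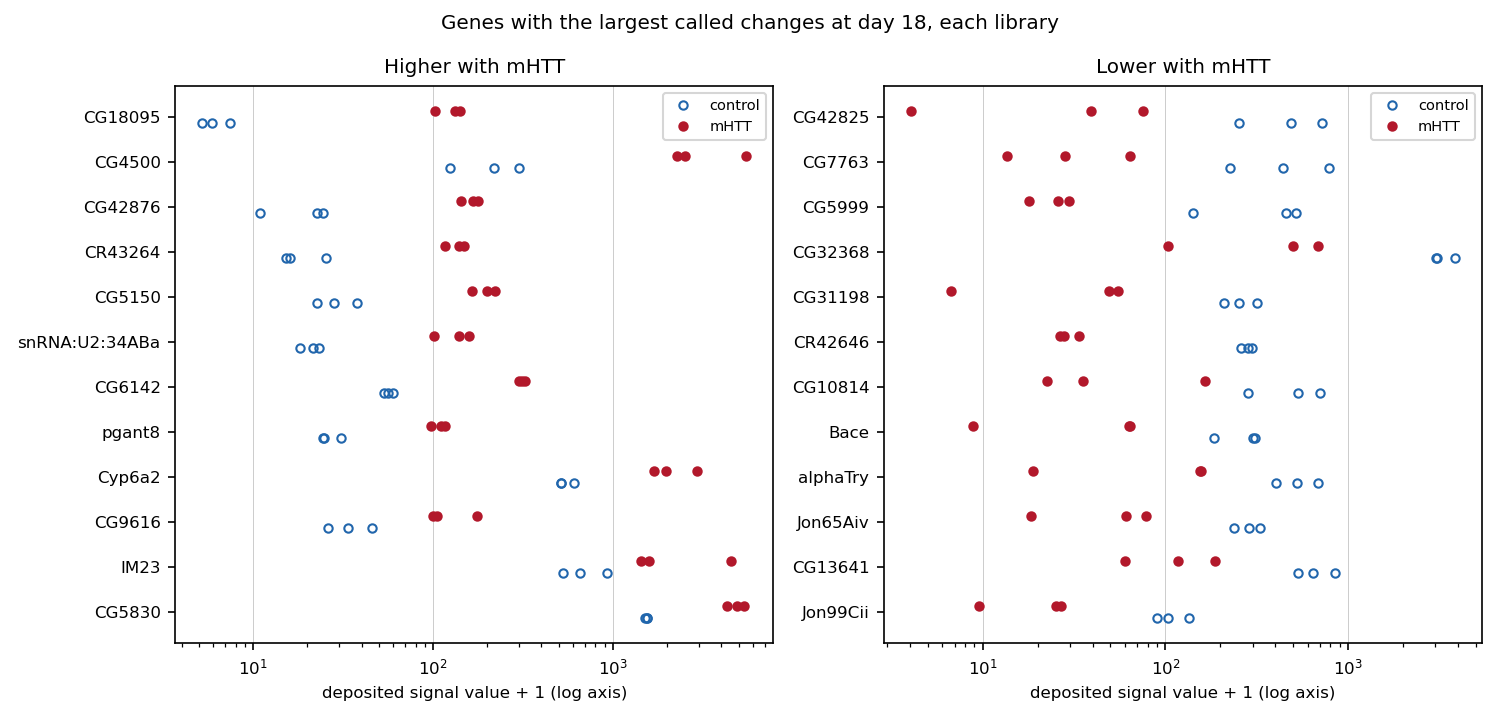
Deposited signal value plus 1 on a log axis in each of the 6 libraries, for the 12 rising (left) and 12 falling (right) genes with the largest called changes. Only genes whose arms did not overlap and whose higher arm averaged 100 or more were ranked. Filled red points are mHTT libraries and open blue points are controls. The arms do not overlap for any of them, and the mHTT values of several falling genes, such as CG42825 with 38.2, 3.05 and 74.7, are more spread than those of the rising genes.

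Among genes averaging 100 or more in the higher arm, the 12 that fell most included digestive enzymes, a UDP-glycosyltransferase and non-coding RNAs. CG5999 (Ugt37A3), a UDP-glycosyltransferase, was at 28.6, 24.8 and 17 with mHTT and at 456, 520.0 and 141 in the controls, a change of -3.75 (SE 0.45, adjusted p = 0.00192). The non-coding RNA CR42646 was at 32.5, 25.5 and 26.8 with mHTT and at 257, 281 and 297 in the controls, with a change of -3.26 (SE 0.13, adjusted p = 2.12e-05). Both fell in every mHTT library against every control. CG32368, listed as a non-coding RNA in current names, was at 496, 102 and 685 with mHTT and at 3838, 3051 and 3016 in the controls, a change of -3.33 (SE 0.60, adjusted p = 0.00839), with the second mHTT library lowest. The second mHTT library was also the lowest for CG42825 and for the digestive protease alphaTry, at 17.9 against 155 and 154 in the other mHTT libraries.

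Counts over gene lists are read against the shares of all genes, 8.57% higher and 10.2% lower, and against the median change of 0.01 over all genes tested. Among the lists with calls in 1 direction, 23 of 29 nucleolar, 9 of 17 lipid storage and 11 of 31 biogenic amine genes fell, and 12 of 22 inducible heat shock genes rose. The nucleolar and amine lists were chosen after their values were seen. The 5 calls each among vacuolar ATPase, circadian, muscle and ion channel genes were all higher, and of 10 calls among 25 fatty acid and triglyceride synthesis genes, a list also chosen after values were seen, 9 were lower. Of 28 proteasome subunits none was called, nor was any of 18 constitutive chaperones and chaperonin subunits or of 18 genes of JNK signalling, cell death and growth arrest, by limma with all 6 libraries. At an unadjusted p under 0.05 these lists held 6, 4 and 4 genes, in both directions together. With any 1 library left out, at most 1 member of each list was called in each direction.

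**Figure D2:**
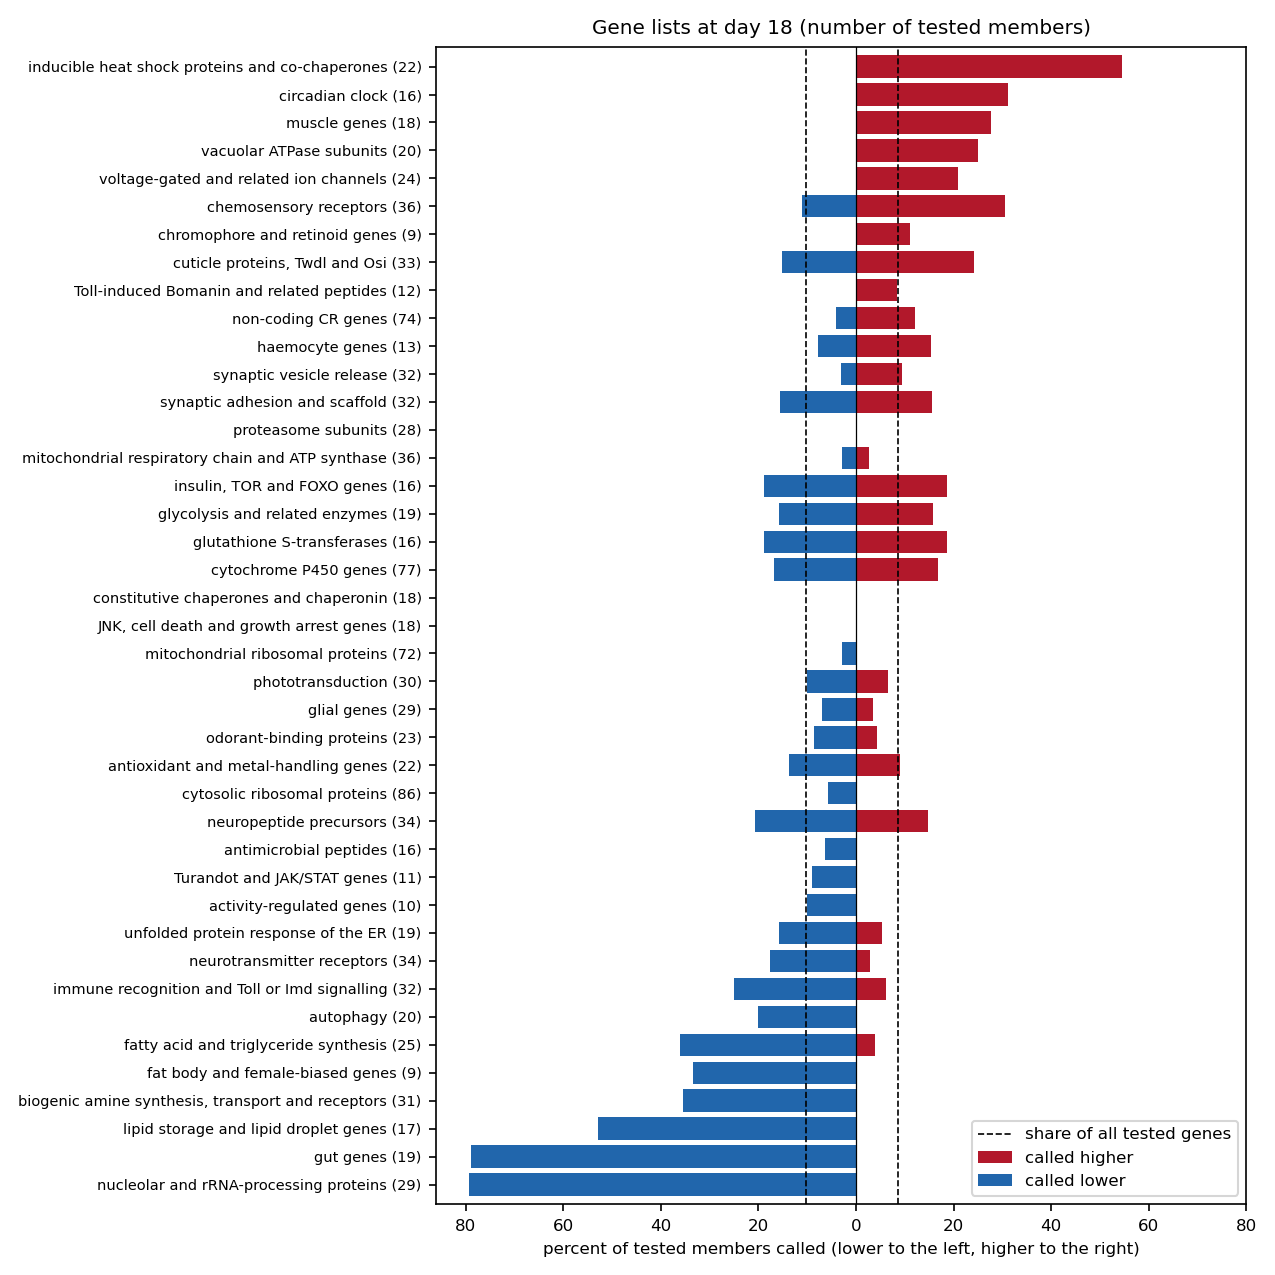
Percent of the tested members of each of 41 gene lists called higher (red, to the right) or lower (blue, to the left) with mHTT at day 18. Dashed lines mark the shares of all tested genes, 8.57% higher and 10.2% lower, and the nucleolar list reaches 23 of 29 lower. The bar of the gut list is no measure of that list, since 6 of its 19 tested members passed the filter on low values only through the controls. The same limit holds for the chemosensory bar, where 3 of 36 members passed only through the mHTT libraries. In the non-coding bar 1 of 74 members passed only through the controls and 2 only through the mHTT libraries.

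Nucleolar and ribosomal RNA-processing proteins were lower with mHTT. Of 29 members tested, 23 fell and none rose (0 at an unadjusted p under 0.05), with a median change of -0.51, and 28 of 29 changes were negative. This list was chosen after values were seen, so its count describes these libraries and is no independent evidence. It stayed between 21 and 25 falling genes in the fits with 1 library left out, and came to 11 when the libraries of days 20 and 22 were fitted as well.

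The strongest decreases lay in the particles that modify ribosomal RNA. Fib (FBgn0003062), the methyltransferase of the box C/D particles, was at 336, 409 and 376 with mHTT and at 1034, 915 and 850.0 in the controls. The highest mHTT value was under the lowest control, and the change was -1.32 (SE 0.10, adjusted p = 0.000284). nop5, a core protein of the same particles, was at 666, 614 and 749.9 with mHTT and at 1596, 1601 and 1398 in the controls, a change of -1.18 (SE 0.09, adjusted p = 0.000284). Nop60B, the pseudouridine synthase of the box H/ACA particles, was at 732, 631 and 786 with mHTT and at 1552, 1469 and 1404 in the controls (change -1.05, SE 0.09, adjusted p = 0.000459). In both genes, too, all mHTT libraries were lower than all controls.

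Other members of both particles fell as well. hoip, a box C/D protein, changed by -0.95 and Nop56, the partner of nop5, by -0.75, and the box H/ACA proteins NHP2, Gar1 (CG4038) and Nop10 (CG7637) by -0.85, -0.63 and -0.59. Subunits of RNA polymerase I, which transcribes ribosomal RNA, also fell, RpI135 by 0.57 (SE 0.11, adjusted p = 0.0104) and RpI1 by 0.46 (adjusted p = 0.011), and its initiation factor Tif-IA fell by 0.32 (adjusted p = 0.037). Myc (dm), a growth regulator that is known to drive many of these genes, was at 322, 279.8 and 423 with mHTT and at 333, 391 and 349 in the controls, with overlapping arms and a change of -0.08 (adjusted p = 0.727).

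The proteins of the ribosome itself moved little. Of 86 cytosolic ribosomal protein genes 5 fell and none rose, fewer than the share of all genes, although 74 of the 86 changes were negative and the median was -0.15. The count came to 21 without the second mHTT library and to 1 without any other single library. Among 72 mitochondrial ribosomal proteins 2 fell.

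Genes of lipid storage and transport fell. Of 17 tested, 9 were lower and none higher (2 at an unadjusted p under 0.05), with a median change of -0.42, and 8 or 9 were lower when any 1 library was left out. The fatty acid synthase CG3523 (FASN1, FBgn0027571), which builds long-chain fatty acids, was at 28761, 30433 and 33833 with mHTT and at 69842, 73739 and 70981 in the controls. The arms lay far apart, and the change was -1.21 (SE 0.10, adjusted p = 0.00035). Rfabg (apolpp), the apolipoprotein of the circulating lipid carrier lipophorin, was at 115660, 107400 and 141400 with mHTT and at 220780, 237320 and 212850 in the controls (change -0.89, SE 0.15, adjusted p = 0.0073). Its adjusted p was 0.10 after quantile normalization. CG15828 (Apoltp), a lipid transfer particle protein, changed by -0.83 (SE 0.15, adjusted p = 0.00954).

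Both proteins that coat lipid droplets and the enzyme that empties them were lower. The perilipin Lsd-1 was at 2489.5, 3100.1 and 1967 with mHTT and at 5005, 4475 and 3803 in the controls, a change of -0.83 (SE 0.16, adjusted p = 0.0115). The perilipin Lsd-2 changed by -0.61 (SE 0.08, adjusted p = 0.00288). The triglyceride lipase bmm was at 2881, 2522 and 2992 with mHTT and at 4181, 5419 and 5234 in the controls, a change of -0.82 (SE 0.11, adjusted p = 0.00302). For each of these 3 genes every mHTT library was lower than every control. In the wider list of fatty acid and triglyceride synthesis, chosen after values were seen, 9 of 25 genes fell and 1, the elongase gene bond, rose, with a median of -0.21. The acetyl-CoA carboxylase gene ACC, which makes the substrate of fatty acid synthase, changed by -0.11 (adjusted p = 0.49), with overlapping arms.

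Fat body markers fell in the same libraries. Their summed value over 6 genes was 522950 to 676090 with mHTT and 793540 to 1199700 in the controls, 4 of the 6 were called lower, and none was at 0. The 4 were fit, Yp2, Yp3 and Rfabg, and Rfabg is also counted in the lipid storage list, so both results share a gene. Yp3 was close to the threshold, with a change of -0.81 (adjusted p = 0.0498). fit, a female-biased gene of the fat body that responds to feeding, was at 3987, 3096 and 3577 with mHTT and at 29267, 20413 and 13359 in the controls, a change of -2.50 (SE 0.25, adjusted p = 0.000763). The yolk protein gene Yp2 was at 91141, 105680 and 82262 with mHTT and at 183100, 240090 and 138820 in the controls (change -0.98, SE 0.21, adjusted p = 0.0155). This call was lost without the first mHTT library or without the first control. Yp1 changed by -0.51 (adjusted p = 0.16) and Lsp2 by -0.24 (adjusted p = 0.784), and neither was called. The part of the fat body markers in the lipid result was not tested.

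Inducible heat shock proteins rose. Of 22 chaperones and co-chaperones 12 were higher and none lower (0 at an unadjusted p under 0.05), with a median of 0.33. The count was 6 without the second control, 7 without the first control and 7 without mHTT library 1 or 3, and it was 7 with the 18 libraries of the model and 3 with all 72 in one fit. Hsp68, a stress-induced member of the Hsp70 family, was at 766, 749 and 669.8 with mHTT and at 338, 318 and 366 in the controls. The lowest mHTT value was well above the highest control, and the change was 1.09 (SE 0.08, adjusted p = 0.000284). Hsp83, the fly Hsp90, was at 4548, 4204 and 3751 with mHTT and at 2008, 1943 and 2793 in the controls, a rise of 0.91 (SE 0.14, adjusted p = 0.0051).

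The Hsp70 genes exist in near-identical copies, so the split of reads between them is uncertain. Their sum over 6 copies was 1727, 1548 and 1598 with mHTT and 1102, 1024 and 1143 in the controls. In the unfolded protein response of the endoplasmic reticulum 1 of 19 genes rose and 3 fell. The one that rose was Hsc70-3, the lumenal chaperone BiP, by 0.35 (SE 0.09, adjusted p = 0.0341). The sensor kinase PEK was at 1306, 1133 and 1311 with mHTT and at 1670.2, 1679 and 1653 in the controls, a change of -0.42 (SE 0.07, adjusted p = 0.00713). The sensor Ire1 and its target factor Xbp1 fell by 0.29 and 0.24, with adjusted p of 0.042 and 0.0477. With 1 library left out, 1 or 2 of the 19 genes were called lower and 0 or 1 higher. Of 20 autophagy genes 4 fell, among them Atg4, a processing protease of the Atg8 pathway, by 0.44 (adjusted p = 0.0104), and none rose (3 at an unadjusted p under 0.05). Without the first mHTT library 1 autophagy gene was called lower.

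Genes for making, packing and sensing biogenic amines were lower. Amines such as octopamine, tyramine, dopamine and serotonin are made by small groups of neurons and modulate arousal, feeding and movement. In this list, also chosen after values were seen, 11 of 31 genes fell and none rose (1 at an unadjusted p under 0.05), with a median of -0.21. In one fit with the 18 libraries of the model 4 fell, and with all 72 libraries 5. The largest fall was that of Tdc2 (FBgn0050446), the neuronal tyrosine decarboxylase that makes tyramine, the precursor of octopamine. It was at 65.5, 75.4 and 62.2 with mHTT and at 297, 254 and 291 in the controls. The values were even within each arm, and the change was -2.04 (SE 0.11, adjusted p = 5.97e-05). In whole heads fewer cells of a type and less RNA per cell cannot be told apart.

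CG10251 (prt), a vesicular transporter related to the monoamine transporter, was at 108, 89.8 and 78.7 with mHTT and at 325, 278 and 308 in the controls, a change of -1.72 (SE 0.13, adjusted p = 0.000284). Trh, the neuronal tryptophan hydroxylase that starts serotonin synthesis, was at 394, 348 and 355 with mHTT and at 624, 539 and 585 in the controls, a change of -0.67 (SE 0.08, adjusted p = 0.00215). In both, the arms were separate. Tbh, which turns tyramine into octopamine, fell by 0.41 (SE 0.08, adjusted p = 0.00915) and the dopamine transporter DAT by 0.39 (SE 0.09, adjusted p = 0.0204). Hn, phenylalanine hydroxylase, which provides tyrosine, fell by 0.85 (SE 0.16, adjusted p = 0.0107).

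The changes in synthesis were not shared by all amine genes. Ddc, the decarboxylase of dopamine and serotonin, changed by 0.12 (adjusted p = 0.24), ple, the tyrosine hydroxylase of dopamine, by -0.50 (adjusted p = 0.1), and the vesicular monoamine transporter Vmat by -0.23 (adjusted p = 0.057). Among the receptors, those for octopamine (oa2) and dopamine (D2R and DopR2) fell by 0.59, 0.53 and 0.51, with adjusted p of 0.0041, 0.00521 and 0.00664. D2R was at 418, 363 and 434 with mHTT and at 575, 569.7 and 611 in the controls. Over 34 neurotransmitter receptor genes of all kinds 6 fell and 1 rose, the nicotinic acetylcholine receptor subunit nAcRbeta-64B, by 0.31 (adjusted p = 0.0299). Of the 6 markers of all neurons 2 were called higher, elav by 0.28 (adjusted p = 0.0493) and para by 0.61, and none lower, with a median change of 0.28.

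**Figure D3:**
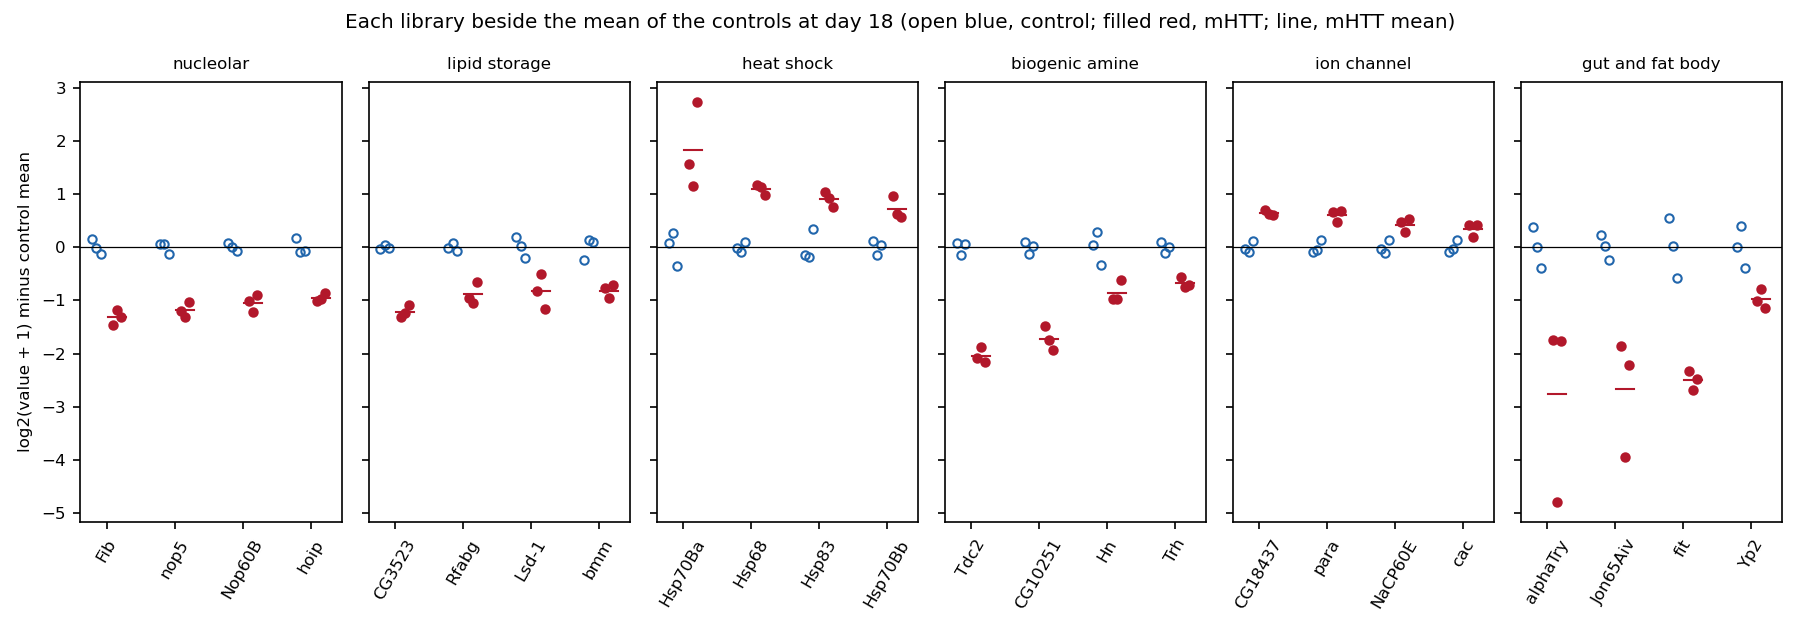
Level of 24 genes in each library at day 18 as log2(value + 1) minus the mean of the 3 controls, in 6 panels by gene group. Open blue points are controls, filled red points are mHTT libraries and red lines are mHTT means. Nucleolar, lipid storage and amine genes lie below the controls and heat shock and ion channel genes above, and alphaTry and Jon65Aiv show the widest spread between mHTT libraries.

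Some ion channel genes were slightly higher. Of 24 voltage-gated and related channel genes 5 rose and none fell (3 at an unadjusted p under 0.05). CG18437 (unc80), part of a sodium leak channel complex, was at 12136, 11523 and 11246 with mHTT and at 7300.5, 7004 and 8054 in the controls, a rise of 0.64 (SE 0.08, adjusted p = 0.00165). The voltage-gated sodium channel gene para was at 1249, 1105 and 1276 with mHTT and at 748, 769 and 867 in the controls, a rise of 0.61 (SE 0.08, adjusted p = 0.00329). Both were higher in all mHTT libraries. The channel count came to 2 without the first mHTT library, without the first control or without the second control, and to 0 with the 18 libraries of the model or all 72 in one fit. Of the 6 neuronal markers, para is itself one of these channel genes, and elav was called higher by 0.28 (limma, adjusted p = 0.0493). The markers n-syb, brp, Syt1 and Snap25 changed by 0.02, 0.06, 0.28 and 0.29 and were not called. The part of the marker levels in the channel changes was not tested.

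Vesicle release genes had mostly small positive changes, 27 of 32. By the test 3 of the 32 rose and 1 fell, against 8.57% higher and 10.2% lower among all genes. Sytalpha, a synaptotagmin, was the one that fell, at 836, 774 and 868 with mHTT and 1186, 1231 and 1297 in the controls (change -0.58, SE 0.07, adjusted p = 0.00168). The 3 higher genes, cac, Rab3 and shi, lost their calls without mHTT library 1 or 3 or without control 1 or 2. Among 32 adhesion and scaffold genes 5 rose and 5 fell. Dscam3 fell by 0.40 (adjusted p = 0.00592) and the neuroligins Nlg2 (neuroligin) and Nlg4 (CG34139) by 0.26 and 0.32, while Nlg1 rose by 0.87 (SE 0.20, adjusted p = 0.0217). Without the first mHTT library none of these 32 was called higher and 1 lower.

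All 20 tested subunits of the vacuolar proton pump had positive changes, with a median of 0.19, and 5 rose by the test. Vha44, the C subunit, was at 6366, 6114 and 6544 with mHTT and at 5093, 5007 and 5100.4 in the controls, a rise of 0.32 (SE 0.06, adjusted p = 0.00873). The count was 2 without any single library other than the second mHTT library. The circadian list held 5 rising genes of 16 and no falling one (1 at an unadjusted p under 0.05). tim, a core clock repressor, was at 23718, 24889 and 21273 with mHTT and at 16722, 15937 and 16533 in the controls, a rise of 0.50 (SE 0.08, adjusted p = 0.0064), and Pdp1, an activator of the clock loop, rose by 0.41 (adjusted p = 0.0075). Without the first mHTT library 2 clock genes were called, and the time of day of collection is not given in the labels.

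Neuropeptide genes changed in both directions. Of 34 tested, 5 rose and 7 fell, and the rising ones went down to none without the second control. Nplp2 was at 58750.0, 58154 and 67350.0 with mHTT and at 139700, 145810 and 131280 in the controls, a change of -1.18 (SE 0.12, adjusted p = 0.000788). CCHa2, a nutrient-dependent peptide of fat body and gut, was at 1624, 1354 and 1692 with mHTT and at 3825, 3034 and 2470.0 in the controls, a change of -0.98 (SE 0.15, adjusted p = 0.0052). Fmrf, which encodes FMRFamide-type peptides, fell by 0.79 (SE 0.10, adjusted p = 0.00201). All 3 were lower in each mHTT library than in each control.

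Insulin-related genes changed in both directions, with 3 of 16 higher and 3 lower. Without the second control 0 of the 16 were called higher. Ilp2, the insulin-like peptide of brain neurosecretory cells, was at 3771, 3246 and 2627 with mHTT and at 2310.4, 1960.4 and 1792 in the controls, a rise of 0.66 (SE 0.14, adjusted p = 0.0148) that was not called without the second control (adjusted p = 0.054). Ilp6, an insulin-like peptide made mainly in fat body, was at 938, 598 and 1348 with mHTT and at 2194, 2264 and 1985 in the controls, a change of -1.23 (SE 0.24, adjusted p = 0.0118). ImpL2, a secreted protein that binds insulin-like peptides, was at 613, 616 and 678 with mHTT and at 1257, 1248 and 1527 in the controls, a change of -1.07 (SE 0.09, adjusted p = 0.000468). No arm overlapped for these 3 genes.

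Immune genes were mostly lower or did not pass the test. Of 32 genes of recognition and Toll or Imd signalling 8 fell and 2 rose, and the falling ones numbered 3 without the first or second control and 4 without the first mHTT library. PGRP-LB, a peptidoglycan-degrading receptor that is itself a target of Imd signalling, was at 289, 307 and 339 with mHTT and at 611, 461 and 448 in the controls, a change of -0.69 (SE 0.13, adjusted p = 0.00915). key, a subunit of the kinase complex that acts on Rel, fell by 0.55 (adjusted p = 0.00516) and the NF-kB factor Rel by 0.67 (adjusted p = 0.0343). Among 16 antimicrobial peptide genes the median was -1.31, and it came to -0.26 without the second mHTT library. The mean log2 level of the list was 7.22 in that library and 9.40 and 9.51 in the other mHTT libraries, against 9.18 to 10.65 in the controls. The 1 gene called was dro5 (Drsl5), a drosomycin-like peptide, at 682, 756 and 641 with mHTT and 4598, 2679 and 1553 in the controls (change -1.95, SE 0.32, adjusted p = 0.00642). The controls of dro5 were widely spread and still did not reach the mHTT values.

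The Toll-induced Bomanin IM23 (BomBc1) was the 1 called gene of 12 in its list, at 4518, 1582 and 1436 with mHTT and at 925, 657 and 526 in the controls, a rise of 1.67 (SE 0.41, adjusted p = 0.0261). The first mHTT library stood far above the other two, and the call was lost without the second or the third control (adjusted p = 0.078 and 0.076). Haemocyte genes moved in both directions. Hml, hemolectin of plasmatocytes, was at 3773, 6709.8 and 6370.5 with mHTT and at 2067, 2472 and 2542 in the controls, a rise of 1.21 (SE 0.20, adjusted p = 0.00667), and the scavenger receptor Sr-CI rose by 0.94 (SE 0.18, adjusted p = 0.0103). The other haemocyte markers nimC1, eater and He changed by 0.05, 0.39 and -0.08 and were not called. The crystal-cell prophenoloxidase CG8193 (PPO2) fell by 0.81 (SE 0.11, adjusted p = 0.00315).

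Several digestive enzyme genes were lower with mHTT. The trypsin alphaTry was at 155, 17.9 and 154 with mHTT and at 683, 522 and 400.5 in the controls, and the Jonah protease Jon65Aiv at 77.3, 17.4 and 59.96 against 328, 285 and 237. The mHTT libraries were lower throughout and the second was the lowest. Jon65Aiv fell by 2.66 (SE 0.47, adjusted p = 0.00784), whereas the call of alphaTry (change -2.77, SE 0.73, adjusted p = 0.0336) was lost without any 1 of the controls. Of 19 gut genes tested 15 were called lower, but 6 of the 19 were under 10 in every mHTT library and passed the filter on low values only through the controls, so the count is no measure of the list. Without the first or second control 4 of 12 were called. These proteases have close relatives, and the split of reads among them is uncertain. Summed gut markers were 751 to 899 with mHTT and 1190 to 1980 in the controls, and how much gut tissue or shed material each tube held was not tested.

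Genes of the eye and of glia are read against 8.57% higher and 10.2% lower among all genes. Of 30 phototransduction genes 2 rose and 3 fell, near those shares. Rh5, the opsin of a class of blue-sensitive photoreceptors, was at 18692, 20401 and 16000.0 with mHTT and at 10185, 9364 and 10066 in the controls, a rise of 0.89 (SE 0.10, adjusted p = 0.00133). Rh4, an ultraviolet-sensitive opsin, was at 45803, 44072 and 35773 with mHTT and at 65537, 55583 and 56434 in the controls, a change of -0.50 (SE 0.13, adjusted p = 0.0288) that was lost in 5 of the 6 fits with 1 library left out. Of 29 glial genes 1 rose and 2 fell, among them CG4797 (pippin), a sugar transporter gene, at 1950.4, 2031 and 1854 with mHTT and at 3428, 3237 and 3034 in the controls (change -0.73, SE 0.07, adjusted p = 0.000581).

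The change at day 18 was then set beside that of the same genotypes at day 20, each age with its own 3 controls. At day 20, 1751 genes were called (17.4%), and across 9922 genes the changes at both ages had a correlation of 0.72, given as a description since genes are not independent. Of 772 genes called at both ages 737 changed in the same direction, which is 39.6% of the calls at day 18 and 42.7% of those at day 20. A test of the difference between both effects called 315 genes (3.08%), of which 263 (2.58%) had the more negative effect at day 18. This number moved between 162 without the second control of day 20 and 482 without the third control of day 18.

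The nucleolar genes were among those whose effect differed between the ages. The difference was called for 21 of the 29, with a median change of -0.51 at day 18 and 0.05 at day 20. The list was chosen after values were seen and the test reuses the day 18 values, so this count is no independent evidence. Fib averaged 374 ± 36.8 with mHTT and 933 ± 93.4 in the controls at day 18, and 520 ± 95.7 and 393 ± 8.54 at day 20 (SD, n = 3). Both arms thus differed from their day 20 level. The mean log2 level of the list was 8.98 to 9.17 in the mHTT libraries and 9.54 to 9.66 in the controls at day 18, against 9.34 to 9.38 and 9.24 to 9.32 at day 20. The day 18 neuronal controls also stood above the glial-driver controls of the same age, which spanned 9.10 to 9.17 at 28 °C. Whether the fall at day 18 belongs to the mHTT libraries or to high values in these 3 controls cannot be told apart from these libraries.

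Lipid storage genes also differed between the ages. The difference between ages was called for 6 of 17, and the median change was -0.42 at day 18 and -0.03 at day 20. CG3523 averaged 31009 ± 2585 with mHTT and 71521 ± 2004 in the controls at day 18 (SD, n = 3), and 63582 ± 4053 and 65776 ± 5833 at day 20. For CG3523 the control means of both ages differed by less than the SD of the day 20 controls, and the mHTT mean was lower at day 18. Over the whole list the controls also moved. Its mean log2 level was 12.52 to 12.59 with mHTT and 12.92 to 13.02 in the controls at day 18, 12.68 to 12.71 and 12.69 to 12.79 at day 20, and 12.61 to 12.71 in the glial-driver controls of day 18. The day 18 neuronal controls thus stood above both other sets of controls, as in the nucleolar list, and the mHTT libraries of day 18 stood below those of day 20. fit averaged 3553 ± 446 with mHTT and 21013 ± 7970 in the controls at day 18, and 21714 ± 663 and 12861 ± 3137 at day 20, a difference between effects of -3.28 (adjusted p = 0.000315).

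**Figure D4:**
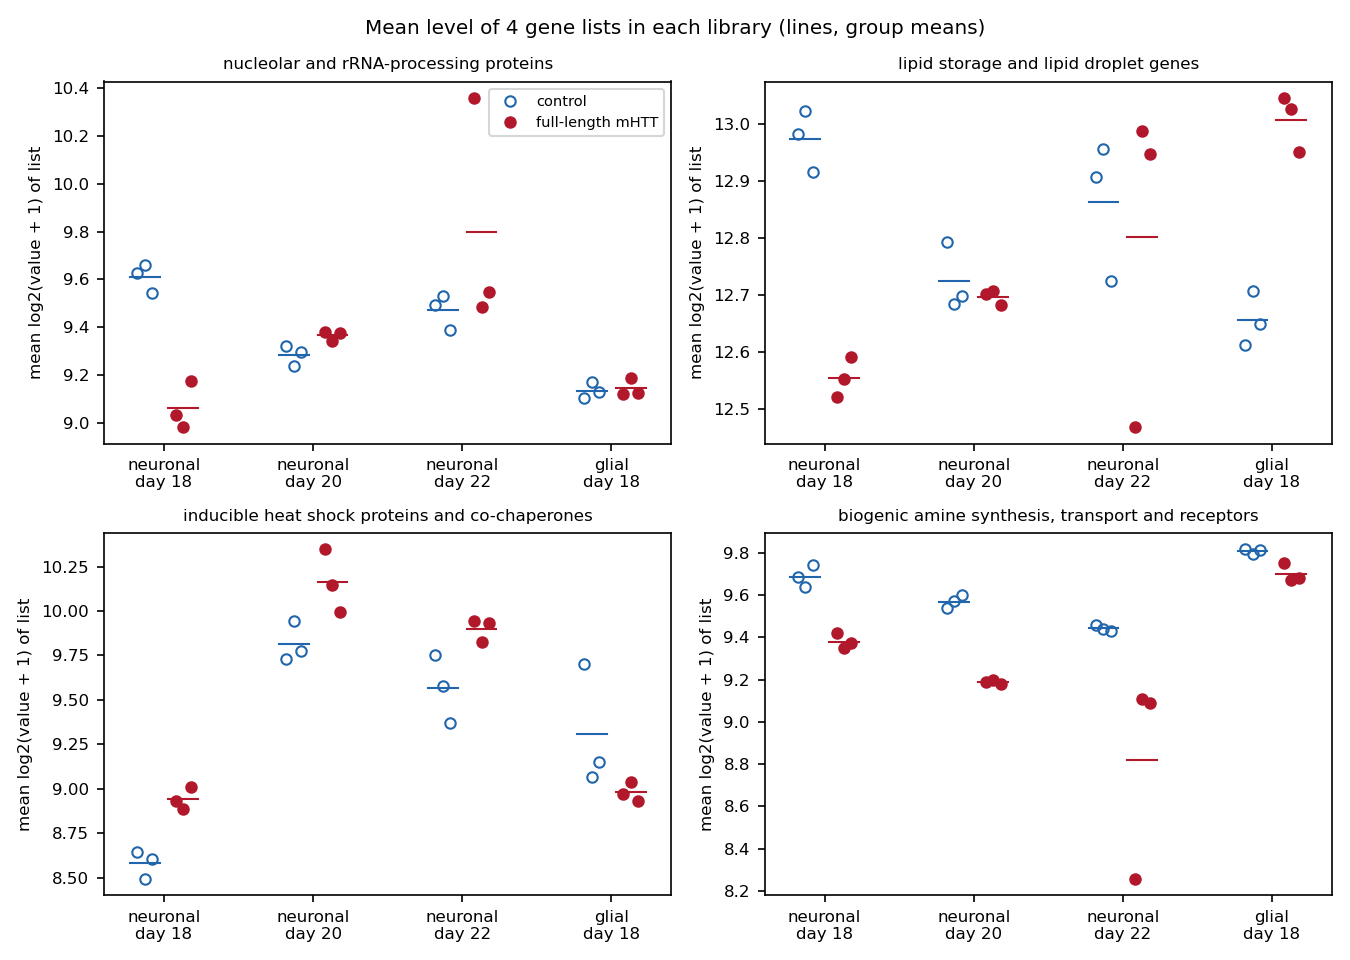
Mean log2(value + 1) over the tested members of 4 gene lists in each library of the neuronal full-length model at days 18, 20 and 22 and of the glial full-length model at day 18. Filled red points are mHTT libraries, open blue points are controls and short lines are group means. At day 18 the nucleolar and lipid storage means are lower with mHTT in every library, while at day 20 the nucleolar means are slightly higher with mHTT (9.34 to 9.38 against 9.24 to 9.32) and the lipid storage arms overlap. Amine means are lower with mHTT at both ages.

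For the amine genes no difference between days 18 and 20 was called in any of the 31, at medians of -0.21 and -0.30. Tdc2 averaged 67.7 ± 6.87 with mHTT and 281 ± 22.9 in the controls at day 18 (SD, n = 3). The same pair of means was 67.2 ± 6.43 and 192 ± 16.1 at day 20, then 55.7 ± 17.8 and 155 ± 8.98 at day 22. It was lower with mHTT at all 3 ages. Heat shock genes were higher with mHTT at day 18 and at day 20 by medians of 0.33 and 0.22, but at very different levels. Hsp83 averaged 4168 ± 399.8 with mHTT and 2248 ± 473 in the controls at day 18, and 22962 ± 1173 and 19613 ± 1281 at day 20. Both arms at day 20 were thus far above both arms at day 18.

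At day 22 the first mHTT library stood far from its group, with a root-mean-square residual of 1.16 on the log2 scale against 0.23 to 0.28 in the 6 libraries of day 18. With it, limma called 0 genes (0%) at day 22 in the fit of 6 libraries, where 1001 had an unadjusted p under 0.05, and 2 (0.0192%) differed in effect between days 18 and 22. Without it, 1444 genes (13.9%) were called at day 22 in a fit of the other 17 libraries of the model, and 391 (3.82%) differed in effect from day 18. The other day 22 libraries were also spread, with residuals of 0.68 and 0.55 with mHTT and 0.41 to 0.64 in the controls. The fit of 17 libraries pools this spread with the smaller one at days 18 and 20. Its p-values may therefore understate the spread at day 22. How much of its count came from the pooling and how much from the omitted library was not tested. In that fit and the 2 fits at days 18 and 20, 222 genes were higher and 226 lower at all 3 ages. The genes with the largest smallest change among them included CG18095, CG6142 and CG42876, which rose, and the cuticle protein gene TwdlG, dro5 and CG10251, which fell.

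Glial full-length mHTT at the same age gave another pattern. That model was kept at 28 °C and has the repo-GAL4 driver, so driver and temperature cannot be told apart in this comparison. There 2648 genes were called (26.4%), and across 9863 genes the changes had a correlation of 0.32 with those of the neuronal model. Of 697 genes called in both, 411 changed in the same direction and 286 in the opposite one, and 2595 genes (25.4%) differed in effect by the test of the difference. Tdc2 averaged 219 ± 26.8 with glial mHTT and 202 ± 37.1 in its controls, and its effect differed between the models (adjusted p = 9.88e-06), as did those of 13 of the 31 amine genes. Of the nucleolar genes 23 of 29 differed, with a median change of 0.02 in the glial model, and of the heat shock genes 9 of 22, with a median of -0.18. The nucleolar and amine lists were chosen after values were seen, and these tests reuse the neuronal day 18 values. Their counts are therefore no independent evidence.

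**Figure D5:**
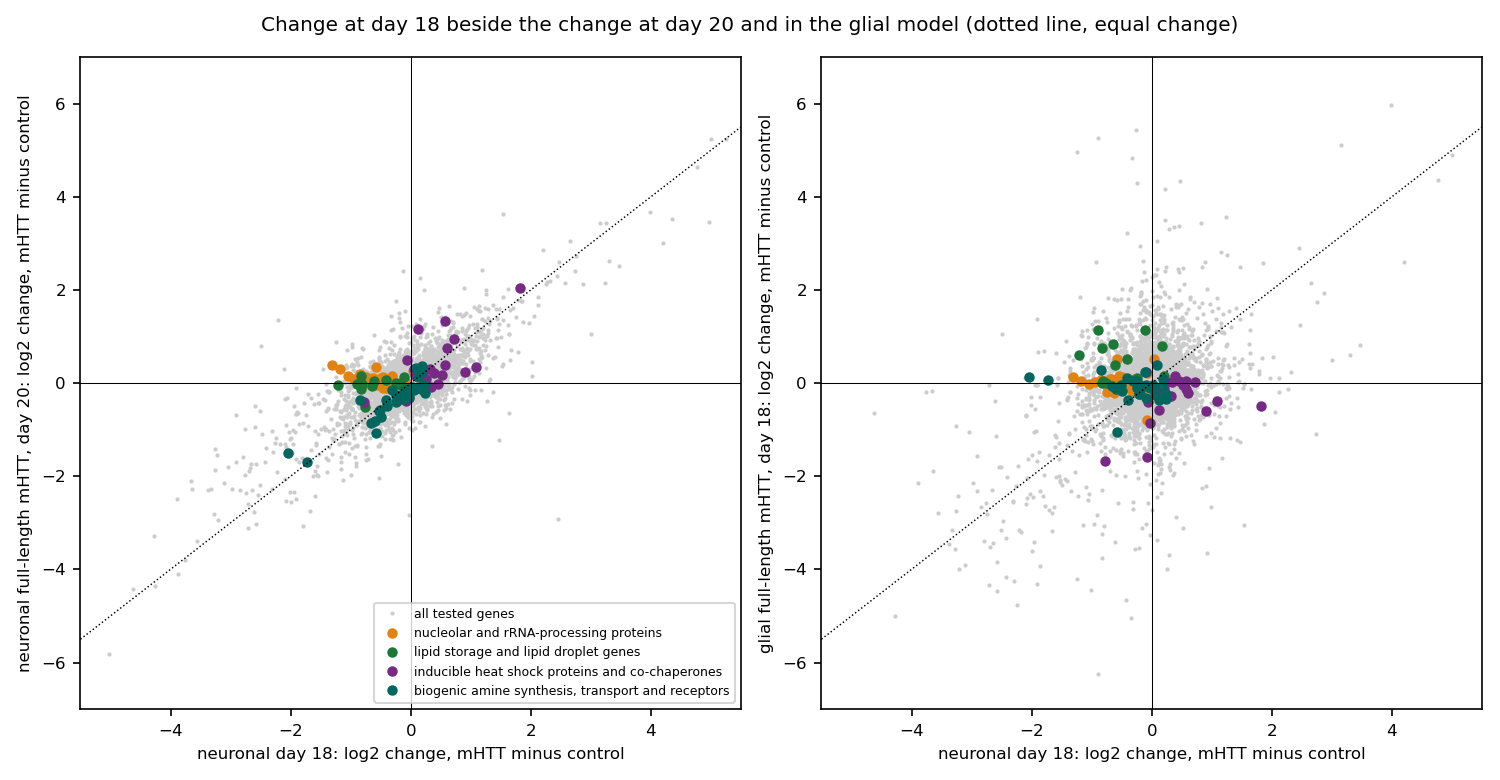
Log2 change (mHTT minus control) of each gene at day 18 in the neuronal model on the horizontal axis, against its change in the neuronal model at day 20 (left) and in the glial model at day 18 (right). Grey points are all tested genes, coloured points are 4 gene lists and the dotted line marks equal change. Across all genes the correlations were 0.72 and 0.32, and the nucleolar genes lie near 0 on both vertical axes.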

How the data were processed

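The authors deposited 1 table of signal values, 13557 genes by 72 libraries, named as normalised RSEM gene estimates, and the upper quartile was 1000 in every library. CASAVA 1.8.2, Bowtie 0.12.0, RSEM 1.1.19, DESeq2 and the build dm3 are listed, per the submitters' processing notes, without their roles. No dm3 annotation was used here, so coordinates and sequences are not given. Low values were mostly whole multiples of 1 step (92.5% to 93.8% in the 6 libraries, within 0.02 reads), which was too few to recover reads, so the step served only to estimate depth.

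The log2(value + 1) levels were fitted by limma (version 3.58.1, run under R 4.3.3, with a mean-variance trend) on the 3 mHTT and 3 control libraries. A gene was tested where 3 or more libraries reached a value of 10, and p-values were adjusted over all of them. Differences of effects were interaction terms fitted to the 12 libraries concerned. The fits were first tested on simulated data. None of 6 within-group pairs of libraries was identical. With the prefix of the library code as a covariate 1713 genes were called, against 1875.

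The groups, the 41 gene lists and the alternatives were chosen with earlier results of these data known, and 3 of the lists after their values were seen. Genes are named by a rule: 7 check genes, the 12 largest called changes in each direction whose arms did not overlap and whose higher arm averaged 100 or more, up to 4 called genes per list and direction, and the largest effects shared by 3 ages or differing between comparisons. Other list members were named for their role after their values were seen. Alternatives were other pseudocounts, filters and scalings, a replicate block, the label prefix, larger fits and leaving out each library.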

Additional observations from a re-analysis of the deposited data

Results flagged for a closer look

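The results here are those for which the effect of mHTT at day 18 differed from the effect at another age or in the glial model by a test of the difference (limma, adjusted over all genes in that fit). Against day 20 the effect differed for 315 genes, against day 22 for 2 and against the glial model at day 18 for 2595. Differences below are the effect at day 18 in neurons minus the other effect, in log2 units.

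Against day 20, the difference was 1.58 for pgant8 (adjusted p = 0.0038), 1.06 for the transporter-like gene CG9664 (adjusted p = 0.00345) and 0.997 for Cyp6a17 (adjusted p = 0.00976). pgant8 averaged 107 ± 9.80 with mHTT and 25.7 ± 3.52 in the controls at day 18, and 78.3 ± 14.96 and 57.0 ± 7.50 at day 20 (SD, n = 3). Cyp6a17 did not change at the threshold at day 18 (change -0.17, adjusted p = 0.274) and fell at day 20. In the other direction the difference was -3.28 for fit (adjusted p = 0.000315), -2.10 for CG43085 (adjusted p = 0.0448), and -2.10 for CG13641 (adjusted p = 0.0258). CG43085 averaged 67.8 ± 24.97 with mHTT and 61.9 ± 24.3 in the controls at day 18, and 379.7 ± 53.6 and 83.6 ± 36.6 at day 20.

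Against day 22 the genes were Ahcy13 (Ahcy, the hydrolase of S-adenosylhomocysteine) and Irp-1B, an iron regulatory protein of the aconitase family. The difference was -1.21 for Ahcy13 (adjusted p = 0.0344) and -1.11 for Irp-1B (adjusted p = 0.00793). Irp-1B was at 1918, 2105 and 1996 with mHTT and at 4949, 5839.8 and 5400.0 in the controls at day 18, and averaged 2646 ± 108 and 3281 ± 155 at day 22 (SD, n = 3).

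Against the glial model the difference was 5.35 for CG6118, 4.69 for CG3397 and 4.57 for CG13428. CG3397 averaged 534 ± 43.6 with neuronal mHTT and 681 ± 77.0 in its controls, and 10.3 ± 4.205 and 356 ± 27.3 in the glial model (SD, n = 3). In the other direction it was -7.75 for CG18853, -6.31 for CG11313 and -6.22 for the storage protein gene Lsp1beta. CG18853 was listed at 0 in all 3 controls of both models and at 515, 559 and 481 with glial mHTT, so this difference depends on the value added before taking logs. CG18853 and CG11313 were too low for the test within the neuronal libraries of day 18.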

How the results depend on the processing

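Of 184 named genes tested at day 18, 180 were called, and over 17 alternative settings 0 of 3077 pairs of gene and setting changed direction, while 546 lost the call and 1 gained it. In every setting 69 of the genes were called, among them Fib, CG3523, Tdc2 and Hsp83. With 1 library left out the calls numbered 954 to 1638 (360 to 728 higher, 538 to 954 lower). With the 18 libraries of the model in one fit they numbered 969 (445 higher, 524 lower), with 17 libraries 2676 (1330 higher) and with all 72 libraries 830 (361 higher, 469 lower). The difference from day 20 held 162 to 482 genes with 1 library left out and 52 with all 72 libraries. The difference from day 22 held 0 to 391 genes with 1 library left out, 20 at a mean of at least 100, 18 with median-ratio rescaling, 9 with quantile normalization, 1 with the label prefix as a covariate and 224 with all 72 libraries. The difference from the glial model held 959 genes with all 72 libraries and 1986 to 2726 with 1 library left out. The cause of these shifts was not tested. Every other pseudocount, filter and scaling tried left the calls at day 18 and the differences from day 20 and from the glial model within 1.5 times their stated counts. The replicate numbers were not treated as pairs, since same-numbered libraries had correlations of 0.08, 0.02 and -0.01. With a replicate block 1635 genes were called at day 18, 215 differed from day 20, 0 from day 22 and 2515 from the glial model. With 3 libraries per arm an exact permutation test of a single gene cannot go below 0.1.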

Other observations

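Energy and detoxification genes held calls in both directions. Of 19 glycolytic and related enzymes 3 rose and 3 fell, but with any 1 library left out 0 or 1 was called higher. The mitochondrial glycerophosphate oxidase Gpo-1 was at 3231, 3753 and 3310.5 with mHTT and at 5835, 5831 and 5411 in the controls, a change of -0.73 (SE 0.08, adjusted p = 0.000889). The trehalose synthesis gene Tps1 was at 14028, 15308 and 16670.0 with mHTT and at 24661, 27607 and 22218 in the controls, a change of -0.69 (SE 0.10, adjusted p = 0.00471). Both were separate in every library, while the glycolytic enzyme Pgi rose by 0.42 (adjusted p = 0.0267). In the respiratory chain and ATP synthase 1 of 36 genes rose and 1 fell. Of 22 antioxidant and metal-handling genes 2 rose and 3 fell, among them the peroxiredoxins Prx2540-1 (change 0.67, adjusted p = 0.0109) and Jafrac1 (change -0.65, adjusted p = 0.0015). Of 77 cytochrome P450 genes 13 rose and 13 fell, and of 16 glutathione S-transferases 3 rose and 3 fell, against 8.57% higher and 10.2% lower among all genes. With 1 library left out, 7 to 14 P450 genes were higher and 7 to 16 lower, and 1 to 3 of the transferases in each direction. Cyp4d21 was at 76.9, 94.99 and 67.1 with mHTT and at 324, 327 and 237 in the controls, a change of -1.88 (SE 0.17, adjusted p = 0.000546).

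Muscle, cuticle and sensory genes also held single changes. The muscle titin-like gene sls was at 8775, 9098 and 8710.1 with mHTT and at 5454, 6514 and 6968 in the controls, a rise of 0.50 (SE 0.09, adjusted p = 0.00995), and 5 of 18 muscle genes rose while none fell (1 at an unadjusted p under 0.05). Without the first mHTT library 2 muscle genes were called. Of 33 cuticle and related proteins 8 rose and 5 fell. TwdlG was at 114.7, 90.2 and 92.6 with mHTT and at 430.2, 417 and 422 in the controls, a change of -2.09 (SE 0.11, adjusted p = 4.38e-05), and Cpr72Ec rose by 0.91 (SE 0.11, adjusted p = 0.00222). Among 23 odorant-binding proteins 1 rose and 2 fell, with Obp83ef at 145, 138 and 182 with mHTT and 372, 351 and 251 in the controls (change -1.05, SE 0.17, adjusted p = 0.00531).

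The odorant receptor gene Or65c was at 34.3, 49.7 and 34.5 with mHTT and at 0.936, 0 and 0 in the controls. Of the 180 chemosensory receptor genes listed, 36 passed the filter on low values, 3 of them only through the mHTT libraries, and 11 were called higher and 4 lower. That count is no measure of the list, and without the first mHTT library 2 were called higher. Other lists held 1 call each, with 1 of 11 Turandot and JAK/STAT genes lower and 1 of 9 retinoid genes higher. Of 10 activity-regulated genes 1, CG13868, was lower by a change of -0.75 (adjusted p = 0.00618). Of 74 non-coding genes 9 were called higher and 3 lower. Among the 74, 1 passed the filter only through the controls and 2 only through the mHTT libraries. Of these CR42653 was called lower and CR42874 higher, so the count is no measure of the list. Egg-shell transcripts, which heads should lack, summed to 135 to 174 over 4 genes with mHTT and 65.1 to 74.1 in the controls. Most of the sum was Cp7Fb, at 123, 122 and 114 with mHTT and 49.6, 61.5 and 52.2 in the controls. It rose by 1.12 (adjusted p = 0.00134), while Cp18 changed by -0.19 (adjusted p = 0.779). Cp36 and Vm26Ab were too low for the test, so a rise of egg-shell transcripts as a class is not shown.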
